A study of Mus musculus with 2 samples.

Results

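Open promoters that are poor in CpG dinucleotides made up 1100 of the 15643 promoter peaks found in both thymus samples. The starting point was DNase-seq, in which DNase I cuts exposed DNA and regions with many cuts are called as peaks. A replicate 1 peak was kept when it overlapped a replicate 2 peak and the middle of the peak was at most 500 bp from a transcription start (TSS) of any protein-coding gene on chromosomes 1 to 19. The CpG observed/expected ratio, the number of CpG dinucleotides relative to the number expected from the C and G content, had to be under 0.35 within 500 bp of the nearest TSS. A protein-coding TSS on the opposite strand within 1 kb led to exclusion. The 1100 peaks lay at 978 TSSs of 885 genes: 711 genes had 1 such peak, 146 had 2 and 28 had 3 or more, with 6 at Arhgap9. The comparison class was the 10539 peaks at CpG-rich promoters (ratio of at least 0.6) under the same limit on opposite-strand TSSs. Another 2461 peaks had a ratio in between, and 1543 had an opposite-strand TSS nearby.

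Both samples were thymus tissue of B6CASTF1/J females (hybrids between C57BL/6J and CAST/EiJ) taken at an age of 14 days, with neither treatment nor control. The labels number them as biological replicates 1 and 2, with 1 donor identifier for both and separate animal numbers, and they were counted as 2 animals. With 2 paired samples an exact test cannot give a p below 0.5, so values are given per replicate, and peaks, genes and promoters are not replicates. Of the tissue's defining marker genes, all 5 of thymocytes (Cd3e, Cd8a, Cd4, Rag1 and Ptcra) had a promoter peak in both replicates, while none of the 3 B cell, 3 thymic epithelial and 2 hepatocyte markers had one. The counts were 2 of 4 for myeloid and dendritic cells (Lyz2 and Cd68), 1 of 3 for erythroid cells and 2 of 3 for endothelium and mesenchyme (Kdr and Pdgfra). In a whole tissue, a weak peak in many cells cannot be told apart from a strong peak in few.

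Most mammalian promoters overlap a CpG island, tend to stay unmethylated and serve genes that many cell types use. CpG-poor promoters lack the island, are often methylated where they are inactive, and belong largely to genes used in particular cell types. Their opening is generally attributed to sequence-specific factors, which in developing T cells include the RUNX, ETS, E protein and TCF/LEF families.

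The upstream sequences of 8 members show what such a promoter looks like: 2 of the strongest members by mean rank, 4 T cell and Gimap genes, and a pair of MHC class II genes that stood apart when the replicates were compared. Each line gives the 150 bases before the TSS in the direction of transcription, with capitals for the bases that lay in footprints of both replicates. A footprint is a short stretch within open DNA that is cut less than its surroundings. They were picked, after their values were seen, from the 32 windows with such bases among 39 windows free of annotated exons, taken from 61 named genes.
AI467606: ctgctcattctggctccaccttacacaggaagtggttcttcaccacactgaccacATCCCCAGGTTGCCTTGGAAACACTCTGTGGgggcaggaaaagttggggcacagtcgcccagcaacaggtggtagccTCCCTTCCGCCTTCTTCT
Rassf5: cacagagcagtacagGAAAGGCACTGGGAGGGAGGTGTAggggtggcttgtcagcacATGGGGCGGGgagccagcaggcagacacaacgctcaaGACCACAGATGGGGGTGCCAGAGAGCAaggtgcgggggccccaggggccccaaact
Lck: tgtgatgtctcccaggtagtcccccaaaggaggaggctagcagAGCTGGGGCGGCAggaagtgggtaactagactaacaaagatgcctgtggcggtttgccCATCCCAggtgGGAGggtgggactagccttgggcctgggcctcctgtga
Cd3d: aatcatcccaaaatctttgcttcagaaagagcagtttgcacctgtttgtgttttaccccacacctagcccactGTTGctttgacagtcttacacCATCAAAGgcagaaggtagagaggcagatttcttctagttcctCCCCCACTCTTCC
Rag2: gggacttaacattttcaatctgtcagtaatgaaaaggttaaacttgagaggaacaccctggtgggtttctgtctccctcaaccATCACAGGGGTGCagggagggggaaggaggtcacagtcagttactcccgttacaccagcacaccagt
Gimap8: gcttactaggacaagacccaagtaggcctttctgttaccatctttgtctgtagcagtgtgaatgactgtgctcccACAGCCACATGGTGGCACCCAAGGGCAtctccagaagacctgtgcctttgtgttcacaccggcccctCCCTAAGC
H2-Aa: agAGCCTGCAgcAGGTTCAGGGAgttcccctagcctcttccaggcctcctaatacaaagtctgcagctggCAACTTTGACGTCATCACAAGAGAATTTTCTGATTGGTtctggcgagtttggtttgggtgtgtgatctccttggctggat
H2-Ob: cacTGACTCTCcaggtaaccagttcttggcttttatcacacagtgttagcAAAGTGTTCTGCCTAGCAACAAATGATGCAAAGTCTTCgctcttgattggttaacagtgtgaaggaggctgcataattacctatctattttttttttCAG

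The stretches lie in mm10 at chr7:127091209-127091358 (AI467606, plus strand), chr1:131200136-131200285 (Rassf5, minus), chr4:129558392-129558541 (Lck, minus), chr9:44981636-44981785 (Cd3d, plus), chr2:101624568-101624717 (Rag2, plus), chr6:48647084-48647233 (Gimap8, plus), chr17:34287824-34287973 (H2-Aa, minus) and chr17:34238753-34238902 (H2-Ob, plus). Positions count back from -1, the base before the TSS. In Rassf5, whose product links RAP1 to lymphocyte adhesion, a RUNX string began at -55 and an SP string at -90, both with their centre in capitals. Lck had an SP string in capitals, beginning at -102, and Cd3d a TCF/LEF string at -55. AI467606 had an ETS string at -15. In H2-Aa a CRE string at -74 and an NFY string at -50 lay in 1 run of capitals from -80 to -43. The CRE string is TGACGTCA, found in 2.50% of all promoters from 250 bp before to 49 bp after the TSS, and the NFY string is CCAATCA or one of its variants CCAATGA or CCAATAG or CCAATGG on either strand, found in 19.1%; letters and shares of the others are given with the comparison of open and closed promoters. MHC class II promoters are known for an X box and a Y box, bound by RFX, CREB and NF-Y factors. The windows of Rag2, Gimap8 and H2-Ob held capitals, but no searched string had its centre there; the longest run of H2-Ob went from -100 to -63.

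CpG-poor promoters were weaker than CpG-rich ones in both animals. Strength here is the deposited signal of a peak. Its values within a replicate are whole multiples of 1 step, with an unknown factor per replicate, so only comparisons within a replicate, or differences of log2 ratios, are made. The median strength of the members was 1.36 in replicate 1 and 1.08 in replicate 2, against 4.39 and 3.32 at CpG-rich promoters. The log2 difference was -1.70 and -1.62, a mean of -1.66 ± 0.06 (SD, n = 2), or 3.15-fold lower. The middle of the distribution ran from 0.691 to 3.08 (quartiles) in replicate 1 and from 0.620 to 2.01 in replicate 2. Members were concentrated in the weakest 25% of all shared promoter peaks, which held 43.7% of them in replicate 1 and 50.4% in replicate 2, while the strongest 25% held 4.09% and 1.27%. The ranges overlapped: the highest member strengths, 24.8 and 10.7, exceeded the CpG-rich medians several times.

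**Figure D1:**
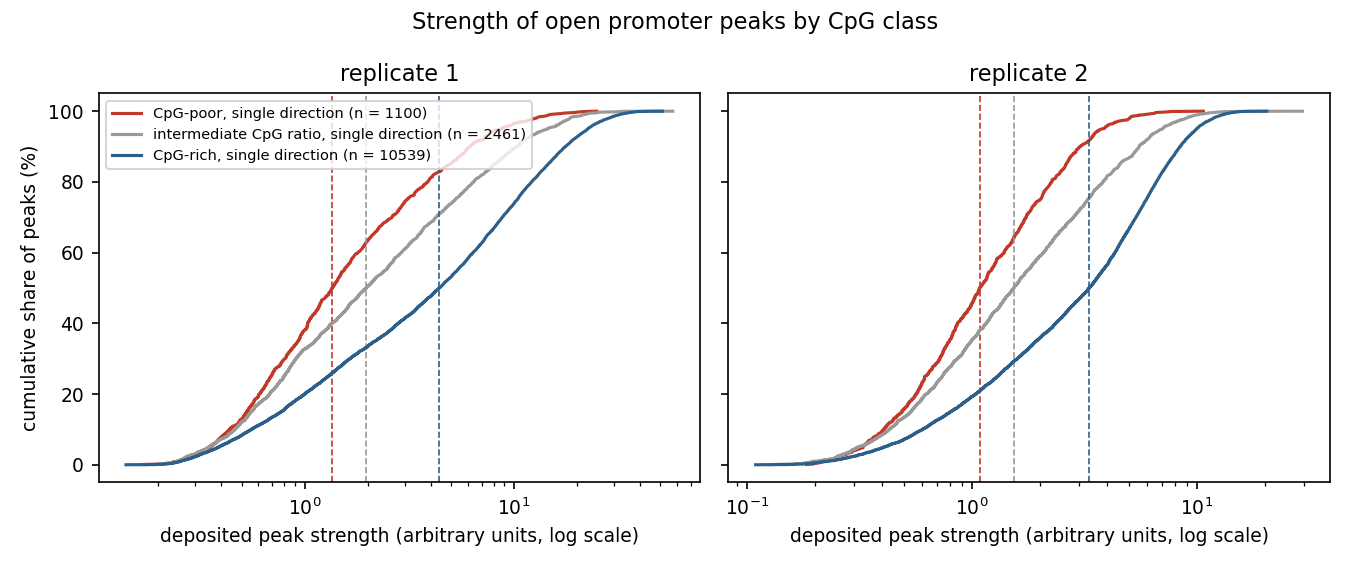
Cumulative share of promoter peaks (vertical axis, percent) by deposited strength (horizontal axis, arbitrary units, log scale) in each replicate, for CpG-poor, intermediate and CpG-rich single-direction promoters. Dashed lines mark medians, which are 1.36 and 1.08 for the CpG-poor class and 4.39 and 3.32 for the CpG-rich class.

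Among the CpG-poor promoters themselves, the share of genes with an open promoter differed with the CpG ratio. Of all 8797 genes with a CpG-poor, single-direction TSS, 885 were open, or 10.1%; opening was the rule of selection. By ratio the open share was 2.37% of 2109 genes under 0.1, 6.14% of 4183 from 0.1 to 0.2, 12.3% of 3109 from 0.2 to 0.3, and 20.2% of 1181 from 0.3 to 0.35. A gene with TSSs in several of these ranges counted in each. Median strength was 0.701 and 0.708 in replicates 1 and 2 for the 57 peaks under 0.1, and 1.40 and 1.18 for the 283 peaks from 0.3 to 0.35. Members just inside the limit were Zfp457 (ratio 0.3498, strengths 5.10 and 4.33) and Pim1 (0.349, 4.51 and 3.69). Just outside were Utrn (0.351, 0.343 and 0.345) and Nsg2 (0.351, 14.5 and 4.91); Nsg2 was stronger than most members.

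CpG-poor promoters were also called less firmly. Of the members, 827 (75.2%, 95% Wilson interval 72.5 to 77.6%) were also in the authors' stricter list of both replicates, against 89.4% of all shared promoter peaks and 91.5% of CpG-rich ones. These intervals cover counting error only. Before the demand for both replicates, replicate 1 had 1418 CpG-poor promoter peaks, of which 77.6% overlapped a replicate 2 peak, and replicate 2 had 1416, of which 75.6% overlapped one of replicate 1. The CpG-rich class had 86.8% and 88.9%. Across members the strengths of the replicates ranked alike, with a Spearman rank correlation of 0.866 (n = 1100), against 0.939 at CpG-rich promoters. The peaks in such a correlation share their 2 libraries.

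The deposited track gives false discovery rates (FDR) of the cut rate base by base. In it, member promoters stayed under a fixed limit over a shorter stretch. Members were weaker, and this was not compared at equal strength. The called peaks were of similar width, with medians of 200 and 260 bp in replicates 1 and 2, against 220 and 260 bp at CpG-rich promoters. The median promoter had 296 bp at an FDR of 0.001 or less within 500 bp of the TSS in replicate 1 and 384 bp in replicate 2, against 776 and 907 bp at CpG-rich promoters. The share of members open at this level reached 65.5% 16 bp before the TSS in replicate 1 and 69.9% 21 bp before it in replicate 2. At 300 bp before the TSS it was 19.8% and 35.3%, against 57.3% and 75.9% in the CpG-rich class. The 7443 genes whose CpG-poor TSSs had no peak within 500 bp in either replicate are called closed here. Their low values in this track follow from that definition: 1.06% and 1.41% had any base under 0.05 in that window. The member peaks were centred near the TSS, with a median midpoint of -22 bp and 60.1% of midpoints upstream, and 56.6% of the peaks spanned it.

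Footprints were fewer, narrower and less often shared at the members. A member peak held a mean of 2.99 footprints in replicate 1 and 3.78 in replicate 2, and a CpG-rich peak 4.14 and 5.32. A replicate 2 peak that overlapped several replicate 1 peaks was counted once for each. Per 100 bp of peak the members had 1.40 and 1.15 against 1.68 and 1.62, a difference of -0.370 ± 0.136 (SD, n = 2). Footprints covered 17.7% and 12.6% of member bases and 26.9% and 22.1% of CpG-rich bases. Of the members' footprints, 50.2% and 47.0% overlapped a footprint of the other replicate, against 70.6% and 67.7%. Footprints of 20 bp or more made up 16.4% and 8.02% at members and 33.7% and 21.3% at CpG-rich promoters. At least 1 footprint in both replicates was found in 935 members (85.0%), near the 87.5% of all shared promoter peaks, and 27 had none in either.

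Part of this gap went with strength. Within the weakest of 4 equal groups of promoter peaks by strength the members had more footprints per 100 bp than CpG-rich peaks, 0.986 against 0.762 in replicate 1 and 0.831 against 0.722 in replicate 2. In the second group the replicates went opposite ways, with 1.54 against 1.45 in replicate 1 and 1.33 against 1.39 in replicate 2. Within the third group the members had fewer, 1.99 against 2.27 and 1.92 against 2.19. In the strongest group, with 45 and 14 members, the density was 2.15 against 2.26 in replicate 1 and 2.52 against 2.37 in replicate 2. Footprints of the members were densest in the 100 bp before the TSS. From -100 to -51 a base was in a footprint in 16.3% of members in replicate 1 and 14.0% in replicate 2, and from -50 to -1 in 16.8% and 13.4%. The most footprints were counted at Tspan32 and Arhgap9 (22 and 20 in replicate 2, against 6 in replicate 1), where the replicate 2 peaks were 1660 and 2525 bp wide and each overlapped 2 or more member peaks. Arhgdib, a regulator of small GTPases in blood cells, had 8 and 14.

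**Figure D2:**
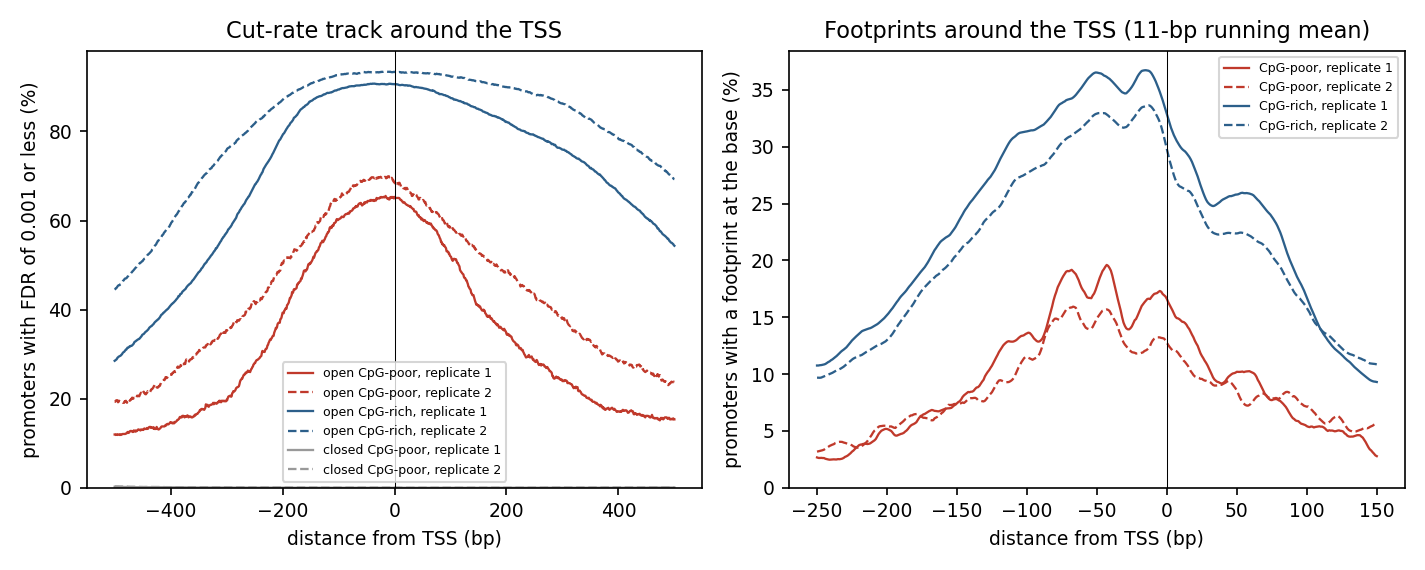
Left: share of promoters (percent) with an FDR of 0.001 or less at each distance from the TSS (bp), for open CpG-poor, closed CpG-poor and open CpG-rich genes; right: share with a footprint at each base, as a running mean. Solid lines are replicate 1 and dashed lines replicate 2. The CpG-poor curves peak at 65.5% and 69.9% on the left, and the closed genes run along the bottom, as their selection implies.

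The open CpG-poor promoters included most of the T cell genes that have such a promoter. Over 6 lists of T cell receptor, surface, signalling, recombination, transcription factor and Gimap genes, 61 of 71 genes (85.9%) were open, beside 10.1% of all genes with a CpG-poor TSS. The lists and the membership rule were drawn up with results of these data known, so this is a description. Of the 8 listed genes of the antigen receptor complex and its coreceptors, 6 had a CpG-poor TSS, and all 6 were open. Cd3g, a signalling chain of that complex, had strengths of 18.5 in replicate 1 and 4.93 in replicate 2, Cd247 (the zeta chain) 8.77 and 2.9999, Cd3e 7.28 and 3.06, and Cd3d 4.56 and 2.74. Ptcra, the pre-T alpha chain of immature thymocytes, had 6.16 and 1.83, and the coreceptor gene Cd4 had 3.33 and 1.63. Cd3g was highest and Cd4 lowest of the 6 in both replicates, and in between Cd247 and Cd3e, and Ptcra and Cd3d, changed places from replicate 1 to replicate 2. Cd8a was outside by its ratio of 0.357, though its promoter peak was strong (12.6 and 3.59).

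Signalling genes followed, with 15 of 18 open. Lat, the membrane scaffold on which receptor signals assemble, had 20.8 and 4.99, and Lck, the kinase that starts receptor signalling, 17.3 and 4.99. Themis, needed for positive selection, had 9.21 and 3.41, and Sit1, an adaptor that restrains signalling, 8.61 and 2.61. Ptpn22, a phosphatase that restrains it too, had 7.27 and 2.68. Grap2, Tagap and Trat1 had no open CpG-poor promoter. Of the surface and homing genes 26 of 30 were open, and the highest by mean percentile were Cd27 (6.15 and 2.92), the costimulatory receptor Cd28 (7.60 and 2.35), the homing receptor Ccr7 (6.25 and 2.38), and Cd5 (5.47 and 2.45), a negative regulator of the receptor. Cd44, Itgae, Ly6d and Thy1 were not. In all these lists, not open means that no member peak was assigned to the gene. A promoter peak may still be present, as at Rag1. Rag2, a subunit of the recombinase, had 9.31 and 3.67, and Dntt, which adds nucleotides at V(D)J junctions, 1.48 and 1.40. The peak at the Rag1 TSS (12.03 and 3.25) was assigned to B230118H07Rik, whose TSS lay nearer.

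Of the transcription factors 5 of 6 were open. Runx1 had 7.79 and 2.61, Satb1, an organizer of thymocyte chromatin, 4.98 and 2.68, and Zbtb7b, which directs the CD4 lineage, 1.13 and 0.501. Tcf12 had 0.410 and 0.443, among the weakest members. The values of Tcf12, Satb1 and Zbtb7b belong to internal starts, 215475, 6702 and 6173 bp inside from the outermost TSS. Tcf12, Satb1 and Runx1 also have a CpG-rich TSS (ratios of 1.04, 0.912 and 0.865). The Tcf12 and Zbtb7b peaks were not in the stricter list of both replicates. These strengths therefore describe 1 start of each gene. The Gimap genes encode GTPases that support lymphocyte survival and lie side by side on chromosome 6. Of these, 7 of 8 were open, with Gimap4 the exception. Gimap8 had 7.21 and 4.14, Gimap9 5.39 and 3.41, Gimap7 5.36 and 1.92, Gimap1 3.67 and 2.26, and Gimap5 2.06 and 1.72. The weakest were Gimap6 (0.940 and 1.29) and Gimap3 (0.654 and 0.472). The median open gene of the 6 lists had 4.50 and 2.10, with a median percentile among members of 83.3 in replicate 1 and 77.3 in replicate 2.

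Of the genes on the pan-leukocyte list, which white blood cells share, 31 of 33 were open, with Lcp1 and Lst1 as the exceptions. The highest by mean percentile over the replicates were Ptpn7, a phosphatase of blood cells (12.8 and 7.55), Arhgap30 (19.6 and 4.77) and Arhgap45 (12.9 and 3.96), both GTPase-activating. Counts were 12 of 19 for cytokines and their receptors, led by lymphotoxin beta (Ltb, 12.4 and 4.23), 6 of 9 for MHC genes, 10 of 16 for interferon-response genes and 6 of 17 for cytotoxic and natural killer genes. In the last group Prf1, which encodes perforin, had 6.39 and 2.08, and Gzma 1.38 and 1.08, while Gzmb, Nkg7 and Ncr1 were not open. Il2, Il4, Il10 and Il2ra were not open either.

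Lists of other cells were near or below the background share. B cell genes gave 3 of 16 (18.8%, interval 6.59 to 43.0%), among them Pou2af1 (5.77 and 1.78) and Blk (2.32 and 1.17). Myeloid and dendritic genes gave 5 of 29 (17.2%, 7.60 to 34.5%), at low strengths such as 0.956 and 1.15 for Aif1, 1.08 and 0.835 for Itgam and 0.945 and 0.691 for Cd68. Over erythroid, thymic epithelial, endothelial and mesenchymal, hepatocyte, muscle, skin and neuron lists the count was 1 of 89 (1.12%, 0.199 to 6.09%), the muscle light chain gene Mylpf (1.16 and 0.777). The Mylpf peak was centred at -348 bp from a TSS 2709 bp inside the gene. Only CpG-poor promoters enter this count. Pdgfra counted as not open, although it had a promoter peak in both replicates (2.76 and 2.62) that was not a member. Large sensory families were almost wholly closed. Olfactory receptors gave 11 of 1123, with strengths up to 1.64 in replicate 1 and 1.43 in replicate 2, and none of 328 vomeronasal and 35 taste receptor genes was open, nor any of 83 keratin and 63 defensin genes. Guanylate-binding protein and schlafen genes each gave 6 of 9, and zinc finger (18 of 150) and solute carrier genes (15 of 138) lay near the background.

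**Figure D3:**
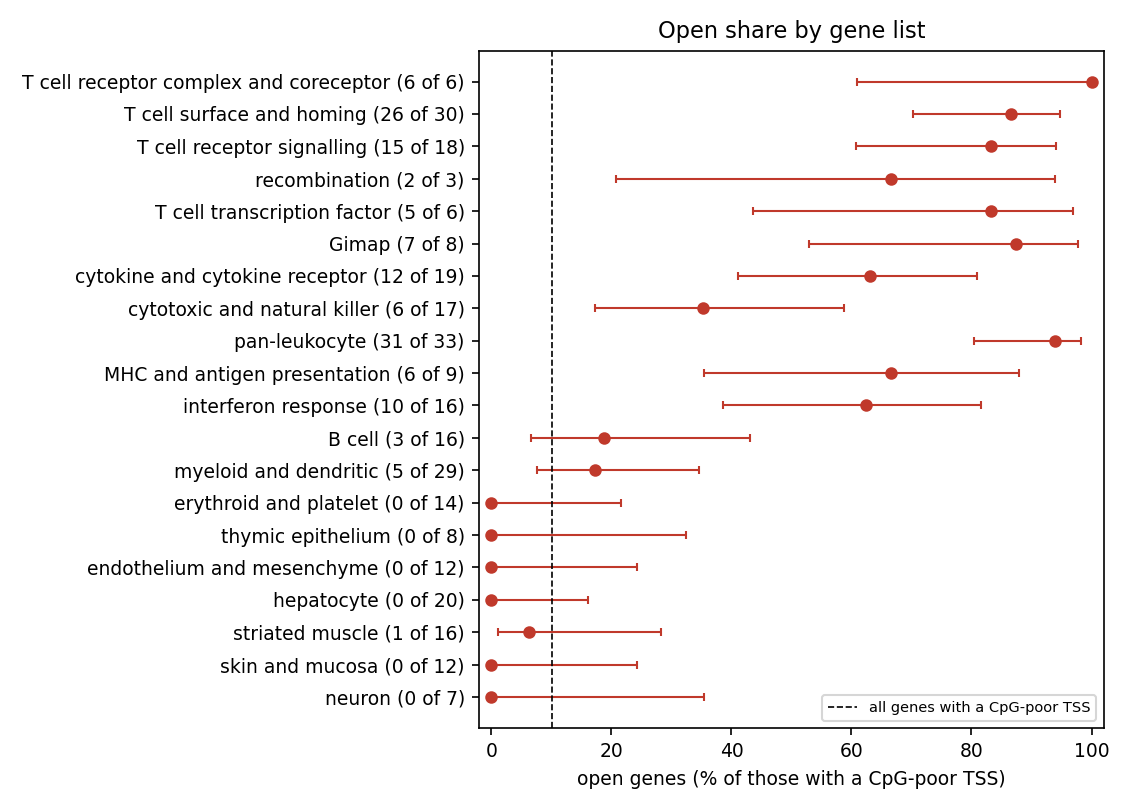
Share of genes with an open CpG-poor promoter (horizontal axis, percent of the genes of each list with a CpG-poor TSS), with 95% Wilson intervals for counting error. The dashed line is the 10.1% of all such genes; the T cell and pan-leukocyte lists lie to its right and the lists of other tissues at or near 0.

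The strongest members were not all on the gene lists. Of the 885 genes 134 were on a blood list and 750 on no list. The lists are short, so a gene on no list may still be a blood gene. The first by mean rank was AI467606 (24.8 and 7.49), a gene of the Spn and Itgal neighbourhood, followed among others by Rassf5 (20.02 and 6.51) and Tldc1 (16.6 and 10.7). Genes of general function among the strongest 20 were Cbx5, which encodes heterochromatin protein HP1 alpha (17.02 and 5.05), Pold4, a subunit of DNA polymerase delta (13.3 and 5.86), Plec, a cytoskeletal linker (14.99 and 5.38), Mterf2, a mitochondrial transcription factor (15.7 and 4.58), and the acyltransferase gene Agpat3 (14.3 and 3.87). Several of these were internal starts of genes that also have a CpG-rich promoter: the open CpG-poor TSS lay 24464 bp inside Cbx5, 35668 bp inside Plec, 45123 bp inside Rassf5, 54244 bp inside Agpat3 and 195902 bp inside Ablim1, an actin-binding LIM protein gene. Lck, with no CpG-rich TSS, was open at a TSS 15250 bp inside. In all, 265 of 885 member TSSs (29.9%) lay over 1 kb inside the gene from its outermost TSS, and 196 genes (22.1%) had another TSS with a ratio of at least 0.6. Strength differed little with position, with medians of 1.61 and 1.22 for the outer and 1.41 and 1.12 for the internal starts.

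Members also lay next to each other. With TSSs at most 100 kb apart counted as neighbours, 317 genes were in groups of members and 568 stood alone. The largest group held 8 genes of the MHC class II region on chromosome 17 (H2-Oa, H2-DMb2, H2-Ob, H2-Ab1, H2-Aa, H2-Eb1, H2-Eb2 and Btnl2). A group of 7 on chromosome 11 held Fndc8 and 6 schlafen genes, and another of 7 on chromosome 6 the Gimap genes. Groups of 5 held the SLAM family receptors Ly9, Cd48, Slamf1, Cd84 and Slamf6, the Trim34a, Trim12a, Trim12c, Trim30b and Trim30a genes, and Cd3g, Cd3d, Cd3e, Jaml and Scn2b. No chance level for such groups was computed.

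Sequence strings of some factors were more frequent in open than in closed CpG-poor promoters. Each was searched on both strands from 250 bp before to 49 bp after the TSS, in 1 promoter per gene (885 open, 7443 closed and 7732 open CpG-rich). For open genes this was the TSS of the peak with the highest mean percentile, and for closed genes the outermost CpG-poor TSS. The effect of this unlike choice on the shares was not tested. ETS strings (AGGAAG or CGGAAG, in 47.8% of all promoters) were in 61.4% of open and 41.1% of closed promoters, and RUNX strings (TGTGGT or TGCGGT, 21.6% of all) in 30.4% and 23.1%. Both together were in 19.8% of open and 9.46% of closed promoters. PU.1 strings (GAGGAAGT, 3.26% of all), which contain an ETS string, were in 8.93% and 3.90%, and CTCF strings (1.16% of all) in 3.05% and 0.537%. SP strings (GGGCGG, 45.6% of all) were in 22.8% and 7.21%, against 74.7% at open CpG-rich promoters. TATA strings (TATAAA or TATATA, sense strand, beginning from -40 to -20, 3.50% of all) ran the other way, with 2.03% of open and 7.19% of closed promoters. The 18 open genes with one included Gzma, Tnf and Ccl4.

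Base composition differed between these groups too, with a median GC content of 52.0% in open, 46.0% in closed and 64.0% in CpG-rich promoters. When closed promoters were weighted to the GC content of the open ones, an alternative chosen after seeing the data, the ETS share of closed promoters was 45.8%, RUNX 24.5%, PU.1 3.54%, CTCF 0.667% and SP 13.8%, each still below the open share. The weighting did not match the CpG ratio, whose median was 0.246 in open and 0.163 in closed promoters. SP strings and the forms CGGAAG and TGCGGT contain a CpG. Without weighting, CGGAAG was in 11.1% of open and 4.10% of closed promoters, and AGGAAG in 56.5% and 38.7%. TGCGGT was in 4.75% and 2.32%, and TGTGGT in 26.6% and 21.3%. How much of each gap goes with the CpG ratio was not tested. The gap nearly closed for KLF strings (GGGTGG, 32.7% of all), from 37.2% open against 22.8% closed to 35.04% after weighting. GATA strings (AGATAA or TGATAA, 16.2% of all) were in 19.1% of open and 29.6% of closed promoters, and in 20.6% after weighting. For TCF/LEF strings (CTTTGAA or CTTTGAT, 7.77% of all) the values were 8.47%, 11.5% and 9.01%. The CAGCTG E-box (15.4% of all) went from 22.03% against 17.0% to 22.8% in weighted closed promoters, so its direction turned. Ikaros strings (TGGGAA, 25.04% of all) were less frequent in open promoters with and without weighting, 25.9% against 30.3% and 32.1%. Searching 500 bp on each side of the TSS moved some gaps between open and closed promoters by over 1.5 times. The gap shrank to -1.07 percentage points for Ikaros, and grew to -6.18 for TCF/LEF, 4.92 for CTCF and 12.7 for CAGCTG strings.

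**Figure D4:**
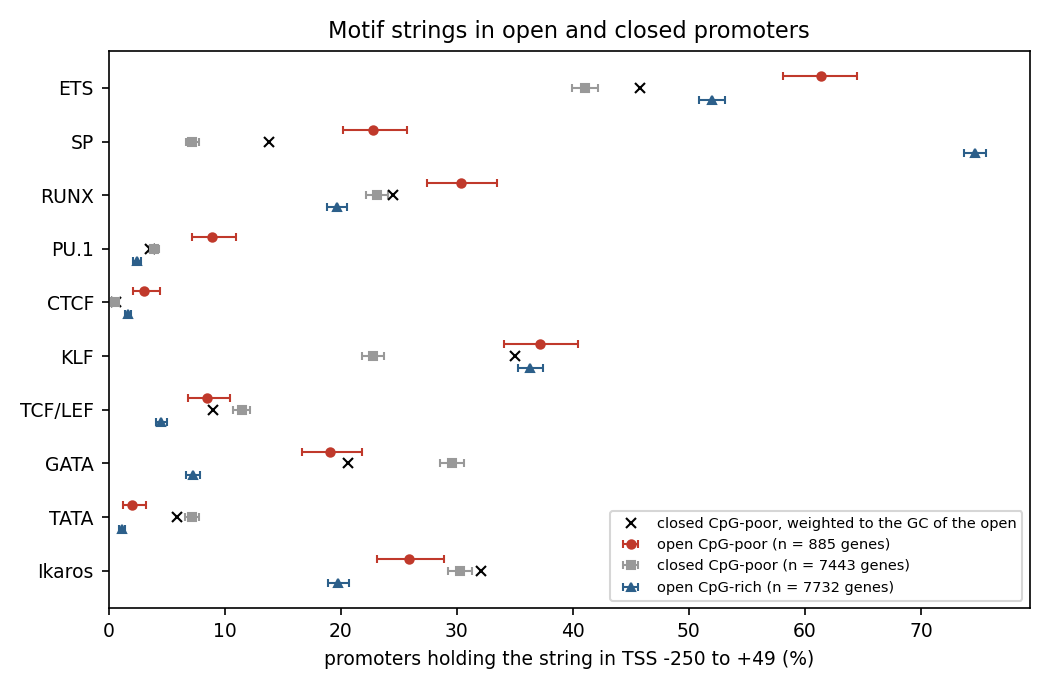
Share of promoters (horizontal axis, percent) that hold each string, for open CpG-poor, closed CpG-poor and open CpG-rich genes with 95% Wilson intervals; crosses give closed promoters weighted to the GC content of the open. ETS strings are in 61.4% of open against 41.1% of closed CpG-poor promoters, or 45.8% after weighting.

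Members with an ETS string were stronger, with medians of 1.86 in replicate 1 and 1.28 in replicate 2 against 1.26 and 1.02 without one. The corresponding medians were 2.06 and 1.29 against 1.43 and 1.16 for SP strings, and 2.61 and 1.55 against 1.48 and 1.16 for PU.1 strings. RUNX strings went with a higher median in replicate 1 (1.83 against 1.41), and the medians of replicate 2 lay close together (1.19 against 1.17). Higher medians in both replicates were not limited to these strings. KLF strings had 1.797 and 1.34 against 1.46 and 1.11, and NFY strings 1.87 and 1.296 against 1.496 and 1.17. TATA strings went the other way, with 1.13 and 0.821 against 1.56 and 1.19, as did TCF/LEF and Ikaros strings. Whether strength goes with any particular string was not tested.

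Which strings lay in footprints was a separate matter. Among strings in member peaks within 600 bp of the TSS, the centre of a CTCF string was in a footprint in 47 of 50 cases in replicate 1 and 51 of 54 in replicate 2. For SP strings the shares were 59.8% and 47.1%, for TCF/LEF strings 43.9% and 30.1%, and for RUNX strings 32.3% and 18.5%. KLF strings were at 35.9% and 23.1%, NFY strings at 32.8% and 22.1%, and PU.1 strings at 15.5% and 11.5%. CpG-rich promoters had 82.3% and 81.8% for CTCF and 60.2% and 52.0% for SP strings. They had 54.7% and 37.1% for TCF/LEF and 32.9% and 24.3% for RUNX strings. In member peaks the share of all bases searched was 19.6% and 14.3%. ETS strings, the most frequent of these in open promoters, were at 16.8% (interval 14.3 to 19.6%) and 14.5% (12.4 to 17.0%), close to that of all bases, whereas at CpG-rich promoters they reached 39.4% and 32.5%, above a base share of 33.3% and 27.8%. The form of the string differed: AGGAAG, in 56.5% of open CpG-poor promoters, was in a footprint in 13.7% and 11.9% of cases, and CGGAAG, in 11.1% of them, in 36.1% and 29.9%. At CpG-rich promoters the pair stood at 21.5% and 16.5% against 50.6% and 43.5%. RUNX strings split likewise at the members: the form with T at the third base was at 29.4% and 14.05%, and the form with C there at 43.5% and 41.4%. CpG-rich promoters had the same split, with 23.6% and 15.5% against 39.3% and 30.3%. TATA strings of the members were in a footprint in 0 of 10 cases in each replicate, which allows a share of up to 27.8% (Wilson), against 46 of 74 and 46 of 77 at CpG-rich promoters. The split by form was made after these values were seen.

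Between the animals, some groups of members shifted against the rest. Taking for each gene the peak with the highest mean percentile, the log2 ratio of replicate 1 to replicate 2 had a median of 0.56 over the 885 genes; this level holds the unknown factor, so only departures from it are read. T cell and Gimap genes had a median of 1.16. Strong members had higher ratios in general: in the strongest 25% of member genes by mean percentile the median was 1.17 (n = 221), with 1.25 for the 36 T cell and Gimap genes and 1.17 for the 162 in none of the lists compared. The 7 MHC and interferon genes among them had -0.05, from -0.80 to 1.16, and 1 of the 7 had a higher percentile in replicate 1. In the next 25% the 3 MHC and interferon genes had a median of 0.61, close to the 0.67 of all members there. The departure also depended on which MHC genes were counted: the 6 open genes of the MHC list had a median of -0.06, and the 9 open genes with an H2 symbol had 0.66. H2-Eb1, an MHC class II chain, had 5.04 in replicate 1 and 4.96 in replicate 2, at percentiles of 85.3 and 97.7 among members. H2-Aa had 3.34 and 3.89, and H2-Ob, a chain of the peptide-loading modulator H2-O, 2.997 and 3.32. Gbp3, an interferon-induced GTPase, had 5.34 and 5.52 and Igtp 4.61 and 3.65, whereas Rsad2, an interferon-induced antiviral gene, had 5.50 and 2.46. Open genes of the B cell list had a median log2 ratio of 0.99 (n = 3) and those of the myeloid and dendritic list 0.45 (n = 5); the cause of the MHC values was not tested.

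The sharpest departure was at members with a CTCF string, the binding site of a factor that anchors chromatin loops. Their median strength was 1.05 in replicate 1 and 1.69 in replicate 2, whereas members without the string had 1.56 and 1.17. The log2 ratio had a median of -0.70 over these 27 genes, from -1.71 to 1.16, against 0.60 over the other 858. Replicate 2 had the higher deposited strength in 22 of the 27 (81.5%) and in 21.8% of the others. Examples are Pdzd9 (0.732 and 2.39), Ttc34 (0.597 and 1.61), C1rb (0.410 and 1.22), Plch2 (1.61 and 3.51), Ahcyl2 (1.41 and 3.43) and Samd9l (3.73 and 5.06), with Spef2 (4.08 and 1.83) the other way. Pdzd9, Ttc34 and C1rb were among the 5 genes whose percentile was furthest above that of replicate 1 in replicate 2. The others were Dusp13 (0.925 and 2.48) and Prss57 (1.27 and 3.60), whose peaks, centred at -481.5 and 385 bp from the TSS, lay outside the stretch searched for strings. The string is one of the promoter stretch and need not lie in the peak, as at Sphk1, whose peak was centred at -349.5. CpG-rich promoters showed the same direction to a lesser degree, with a median of 0.16 over 129 promoters with the string against 0.60 over 7603 without it. ETS strings at the members went the other way, with 0.68 against 0.37, and at CpG-rich promoters with 0.67 against 0.50. This was not particular to ETS strings. At the members PU.1 strings had 0.90 against 0.54, CAGCTG 0.79 against 0.51, SP 0.68 against 0.50 and RUNX 0.68 against 0.51. TCF/LEF strings, with 0.39 against 0.57, went the way of CTCF. Strong members had higher ratios in general, and the strings were not compared at equal strength. The comparisons by string were made after the values were seen and rest on 1 animal on each side. Their causes were not tested.

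**Figure D5:**
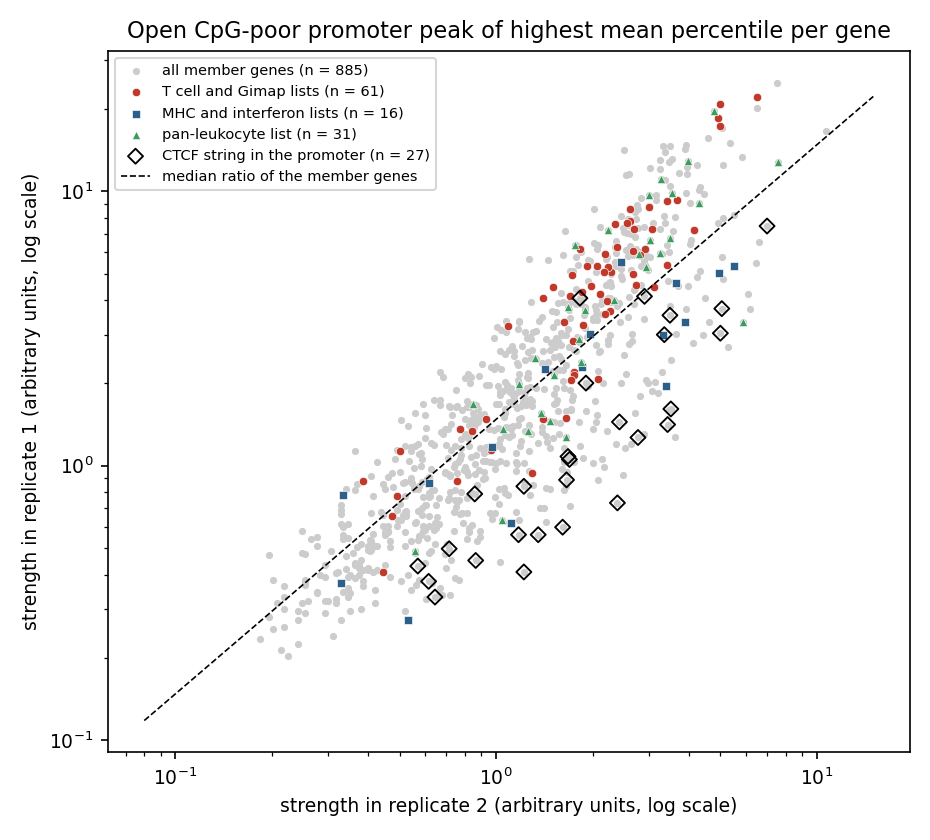
Strength in replicate 1 (vertical) against replicate 2 (horizontal), both in arbitrary units on log axes, for the peak of highest mean percentile of each of 885 member genes; the dashed line is the median ratio. T cell and Gimap genes, pan-leukocyte genes, MHC and interferon genes and the 27 genes with a CTCF string (diamonds) are marked; 22 of the 27 have the higher strength in replicate 2.

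In replicate 1 the genes whose percentile was furthest above that of replicate 2 were Il12rb2, a receptor chain for interleukin 12 (2.20 and 0.668), Micall2 (1.46 and 0.507), Btbd16 (2.11 and 0.685), Abca17 (1.68 and 0.593) and the chemokine gene Ccl4 (1.13 and 0.363). None was on the T cell lists.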

How the data were processed

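DNase-seq of 2 thymus samples was analysed from deposited tables. Per the listing deposited with each sample, the authors called peaks, footprints and a track of false discovery rates separately per sample on mm10. For aligner, callers, settings and read depth: not given in the sources used here. Peak signal from the authors (here strength) has no stated scaling; every value was a whole multiple of a unit of 0.00519 (replicate 1) or 0.00576 (replicate 2), to within 0.05 units. Of the deposited values treated as p-value or q-value, the track gives rates listed up to 0.05 and the footprints give 0.01 throughout. The longer of 2 peak lists (97051 and 108010 peaks) was used and the shorter (64927 and 72884) served as the stricter list. For each member, the strongest overlapping replicate 2 peak gave its replicate 2 strength and footprints. A wide replicate 2 peak could serve several members, so the replicate 2 values rest on fewer distinct peaks. TSSs came from GENCODE M21 basic protein-coding transcripts and sequence from GRCm38.p6; coordinates are 1-based.

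The members, gene lists, families and motif strings were chosen with earlier results of these data known. Named genes are the 20 members with the highest mean percentile of strength, up to 5 of each T cell and Gimap list and 3 of each other list, the 5 with the largest percentile difference in each direction, the 5 peaks with most footprints and those nearest the CpG limit; others are named as list members or after their values were seen. Some genes that meet the rule are not reported here. No test between groups was possible with 1 group of 2 animals. Shares carry 95% Wilson intervals. The alternatives tried were other CpG limits and windows, overlaps, TSS sets, peak lists, single replicates, motif windows and a GC weighting. Python 3.11.15, pandas 2.3.3, numpy 2.4.6, scipy 1.17.1 and matplotlib 3.10.9 were used, and the overlap, CpG, motif and selection steps were tested on simulated data (30 of 30 checks passed).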

Additional observations from a re-analysis of the deposited data

How the results depend on the processing

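Of 61 alternative values for the main quantities, 42 stayed within the spread or interval, or within 1.5 times for counts, and 19 moved without a change of direction. The share of genes open was 8.33% and 12.02% at CpG limits of 0.30 and 0.40, 8.81% with midpoints within 250 bp, 8.003% with a reciprocal overlap of 50%, 8.09% with the stricter list, and 12.1 to 12.4% with either replicate left out. The log2 strength difference was -1.88 within 250 bp, -1.87 with the reciprocal overlap, -1.77 without the limit on opposite-strand TSSs, -1.42 with the stricter list, -1.42 against all other single-direction promoters, and -1.81 to -1.76 with a replicate left out. The share in the stricter list was 78.1% within 250 bp and 80.03% with the reciprocal overlap. The footprint difference was -0.517 per 100 bp for footprints found in both replicates. The gap in ETS strings was 12.2 percentage points within 500 bp of the TSS and 15.6 with the GC weighting, against 20.3; under that weighting the gap of the CAGCTG E-box reversed to -0.792 points. The causes were not tested beyond what each setting changes. The number of members ran from 786 to 1418.

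Depth limits these values: the read depth is unknown, so a closed promoter is one without a called peak and no count-based interval can be given for a strength. The 2 animals give the spread of each value and no test.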

Other observations

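Other gene families with CpG-poor promoters were counted in the same way. Genes with a protein tyrosine phosphatase symbol (Ptpn or Ptpr), which takes in the CD45-associated protein gene Ptprcap, gave 6 of 13 open genes (Ptpn7, Ptpn22, Ptprcap, Ptpn6, Ptpre and Ptprc), with median strengths of 4.83 in replicate 1 and 2.13 in replicate 2. Chemokine ligands gave 2 of 27 (Ccl4 and Ccl6). Genes named as CD antigens gave 30 of 71. None of 14 Fc receptor genes was open (interval 0 to 21.5%), 1 of 9 granzyme genes was (Gzma), and 2 of 24 killer lectin receptor genes were (Klrd1 and Klra1). The shares of chemokine ligands (7.41%), granzymes (11.1%) and killer lectin receptors (8.33%) were near the 10.1% of all genes with a CpG-poor TSS, and the Fc receptor interval contains it, so none of these is a result about the family. The 11 open olfactory receptor genes were weak, with a median of 0.660 and 0.512. These families were drawn up by symbol with results of these data known, and carry no test.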
